A study of Mus musculus with 30 samples.

Results

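The genes described here are 38 immediate early and delayed serum response genes, read in 30 RNA-seq libraries of mouse fibroblasts. They were chosen by name, as genes that growth factors and serum are known to induce in fibroblasts. Earlier results of these data were known at that choice, so shares of members set against all genes are descriptive. The AP-1 and Egr genes were left out because Jun and Egr1 were themselves delivered in the study. All 38 were found by symbol among 36047 genes with a summed estimated count. NIH3T3-CG is a line of NIH3T3, embryonic mouse fibroblasts that were made immortal, and the labels do not explain its suffix. The series title names a study of how variation in transcription factors relates to differences between cells in their response to Hedgehog, and the labels used here state no Hedgehog ligand, no serum starvation and no time after delivery. In 1 experiment, Prrx1 was brought in by transduction and the cells had doxycycline added or not. In another, cells received a Prrx1 plasmid, a Snai1 plasmid or a control plasmid, and Prrx1 and Snai1 share those controls. In a further one they received an Egr1 plasmid, a Jun plasmid or a control plasmid, again with shared controls, and in the last a Srebf2 plasmid or its own control plasmid. Each of the 10 groups held 3 libraries. No label tells whether the 3 are separate cultures, and a p-value here reflects just how far those 3 libraries scatter, possibly for technical reasons alone.

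Immediate early genes are transcribed soon after a stimulus without new protein synthesis. In fibroblasts this runs mainly through the ERK kinases and through serum response factor, SRF, which binds CArG boxes together with ternary complex factors or with the actin-regulated MRTF cofactors. Many early products switch the signal off again: the Dusp genes encode phosphatases that inactivate MAP kinases, the Sprouty genes and Errfi1 encode inhibitors of receptor tyrosine kinase signalling, and Zfp36 and Zfp36l1 encode proteins that bind AU-rich elements in mRNAs and cause their decay. Their own transcripts are short-lived, and delayed genes of the response follow.

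Total estimated counts lay between 7996355 and 12600603 in the doxycycline libraries and between 8506132 and 17129632 without doxycycline, and between 18020141 and 37068611 in the plasmid libraries. Members were well covered, with a median of 895 estimated counts over genes and libraries. Each delivered factor was higher in its own group, with no overlap between libraries and fitted folds of 3.85 for Prrx1 with doxycycline, 27.5 for Prrx1 by plasmid, 123 for Snai1, 9.5 for Egr1, 22.1 for Jun and 4.19 for Srebf2. The fibroblast markers summed to between 15922 and 28948 CPM (counts scaled so that the gene-summed counts of every library have the same total) over all groups, a sum carried mainly by Fn1, Col1a2 and Vim; Dcn and Lum, also on that list, were low in every library of the doxycycline experiment (at most 4.62 and 1.3 CPM) and at least 99.5 and 12 CPM in the plasmid libraries. The epithelial markers summed to at most 15.3 CPM outside the Egr1 group. Replicate 3 of the Egr1 group held 241 genes at 2-fold or more above both of its group mates, and the epithelial sum of that group spans 9.78 to 160 CPM. Replicate 2 of the Jun and Egr1 controls held 439 such genes, among them the members Nr4a3 and Vgf. The shallow replicate 2 without doxycycline held 249 genes 2-fold above and 242 below its group mates, and replicate 1 of the Prrx1 and Snai1 controls held 52 below. Member results that rest on these libraries are also given without them.

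The members are compact genes. Their most abundant coding transcript spans a median of 5292 bases of genome with 3.5 exons, against 20317 bases and 8 exons over 11719 protein-coding genes with a mean of at least 1 TPM, the length-corrected unit of the authors' tables. At most 3 exons were found in 19 members, or 50% of them, against 14.6% of those genes. AU-rich letters are frequent in their 3′ UTRs: the heptamer TATTTAT stands in 23 of 38 members (60.5%), against 26.4% of the 11159 coding genes with an annotated 3′ UTR. The median 3′ UTR is 1148 bases long in members and 864 bases in those genes, and the members hold 0.863 heptamers per kilobase against 0.299. The longer nonamer TTATTTATT, the core to which Zfp36 proteins are known to bind, stands in 8 members (21.1%), against 6.9%. The first site of each is printed because the proteins of 2 members are known to bind this element; sequences are 5′ to 3′ from GENCODE M21 transcripts and capitals mark the nonamer.
Zfp36: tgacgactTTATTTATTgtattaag
Zfp36l1: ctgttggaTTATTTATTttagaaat
Dusp1: gctggtccTTATTTATTtaacaccc
Dusp8: tcgattttTTATTTATTtaagctag
Phlda1: gattatgaTTATTTATTagtttttt
Maff: ccacactcTTATTTATTgcacgaat
Srf: ggcaccacTTATTTATTgttgcctt
Csrnp1: ctctgaatTTATTTATTtttttatg
Zfp36 and Zfp36l1 themselves are in this set, next to the phosphatases Dusp1 and Dusp8, the growth-control gene Phlda1 and the nuclear factors Maff, Srf and Csrnp1.

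RefSeq promoters of the build GRCm38.p6, from 250 bases before to 50 bases after a gene's start, were matched for 28 members with 39 promoters. Both strands were searched. The CArG box, which SRF binds, was found in 3 of the 39 (7.69%), against 1.63% of 32851 promoters of all genes, and these are the promoters of Dusp5, Srf and Zfp36. The cyclic AMP response element TGACGTCA was found in 4 (10.3%, against 1.79%), in Dusp1, Dusp8, Errfi1 and Maff. The Egr motif GCGNGGGCG was found in 9 (23.1%, against 5.55%), in Gadd45b, Klf2, Klf4, Maff, Mafk, Nr4a1, Nr4a2, Srf and Zfp36. The AP-1 motif TGANTCA was found in 3 (7.69%, against 7.81%), and the Snail E-box CAGGTG in 4 (10.3%, against 20.2%). The sterol motif TCACNCCAC and the homeobox core TAATTA were in none of these windows, against 1.24% and 5.29%. A match is a run of letters and not a shown site. The promoters below carry the serum response motifs of genes whose levels moved in the comparisons that follow; capitals mark CArG boxes, TGACGTCA and GCGNGGGCG, on either strand.
Dusp5, chr19:53528895-53529194, plus strand: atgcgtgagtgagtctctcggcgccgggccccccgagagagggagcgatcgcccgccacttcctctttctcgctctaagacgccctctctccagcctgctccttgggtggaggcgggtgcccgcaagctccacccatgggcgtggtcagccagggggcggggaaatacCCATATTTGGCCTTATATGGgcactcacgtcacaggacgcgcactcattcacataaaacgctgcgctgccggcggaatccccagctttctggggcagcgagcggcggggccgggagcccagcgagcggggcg
Srf, chr17:46556113-46556412, minus strand: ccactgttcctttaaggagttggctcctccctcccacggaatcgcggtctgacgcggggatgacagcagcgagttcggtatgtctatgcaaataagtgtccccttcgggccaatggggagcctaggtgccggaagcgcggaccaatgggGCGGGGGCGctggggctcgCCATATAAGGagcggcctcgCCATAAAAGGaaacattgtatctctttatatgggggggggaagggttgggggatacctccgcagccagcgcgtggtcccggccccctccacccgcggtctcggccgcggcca
Zfp36, chr7:28379179-28379478, minus strand: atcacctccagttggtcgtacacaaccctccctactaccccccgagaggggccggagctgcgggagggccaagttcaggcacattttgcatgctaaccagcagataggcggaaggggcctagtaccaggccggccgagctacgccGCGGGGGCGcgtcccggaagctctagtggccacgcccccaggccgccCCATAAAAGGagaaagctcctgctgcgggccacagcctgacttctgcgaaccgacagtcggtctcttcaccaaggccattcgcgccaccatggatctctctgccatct
Dusp1, chr17:26508423-26508722, minus strand: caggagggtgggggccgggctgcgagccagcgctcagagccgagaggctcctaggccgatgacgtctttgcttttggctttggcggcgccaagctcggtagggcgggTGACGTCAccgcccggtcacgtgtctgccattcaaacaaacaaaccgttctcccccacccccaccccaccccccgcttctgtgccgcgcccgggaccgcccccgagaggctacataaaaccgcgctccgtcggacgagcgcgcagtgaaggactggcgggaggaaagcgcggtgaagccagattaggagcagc
Maff, chr15:79347270-79347569, plus strand: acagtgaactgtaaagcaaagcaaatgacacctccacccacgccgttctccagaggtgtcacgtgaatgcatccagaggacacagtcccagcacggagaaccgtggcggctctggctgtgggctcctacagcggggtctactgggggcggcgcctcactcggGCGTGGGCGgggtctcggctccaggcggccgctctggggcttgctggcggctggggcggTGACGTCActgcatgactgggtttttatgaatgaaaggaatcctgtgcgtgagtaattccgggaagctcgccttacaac
Klf4, chr4:55532426-55532725, minus strand: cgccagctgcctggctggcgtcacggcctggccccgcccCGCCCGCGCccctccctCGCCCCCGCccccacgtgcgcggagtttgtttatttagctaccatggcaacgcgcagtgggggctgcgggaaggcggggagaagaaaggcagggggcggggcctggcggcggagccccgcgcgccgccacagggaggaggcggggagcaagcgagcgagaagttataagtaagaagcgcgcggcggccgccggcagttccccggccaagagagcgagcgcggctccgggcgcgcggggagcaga
The Dusp5 and Srf windows hold 2 CArG boxes each, and the Zfp36 window holds 1 next to an Egr motif. Promoters of Spry4, Vgf, Myc, Klf10, Ier2, Trib1, Dusp4, Hbegf, Arc and Phlda1 were not analysed here.

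Levels between genes are compared per length, as the authors' TPM averaged over the 30 libraries. The kinase Sgk1, which serum and glucocorticoids induce, had the highest level of the members at 338 TPM. Over all libraries pooled it was followed by Errfi1 (114 TPM), the MAP kinase phosphatase Dusp4 (112 TPM), the coagulation receptor tissue factor F3 (107 TPM) and the growth regulator Myc (106 TPM). Sgk1 led in every group, but the order of the next 4 differed between groups: Dusp4 averaged 206 TPM and Errfi1 81 TPM in the Egr1 group, while without doxycycline F3 averaged 112 TPM, Myc 60.8 TPM, Dusp4 56.6 TPM and Errfi1 55.4 TPM. At the low end were the nuclear receptor Nr4a3 (0.639 TPM), the neuronal activity gene Arc (1.35 TPM), the stress factor Atf3 (1.68 TPM), the phosphatase Dusp8 (1.87 TPM) and the Sprouty gene Spry4 (2.07 TPM).

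Across the 4 control or untreated groups, the libraries without doxycycline had the lowest group mean for 32 of 38 members. The same held for 5597 of 12544 genes with a mean of at least 1 CPM. All 3 libraries without doxycycline lay below all 9 transfection control libraries for 26 members (68.4%), against 31.8% of those 12544 genes. They lay above all 9 for 1 member (2.63%), the phosphatase Dusp1, against 29.0% of those genes. With edgeR's quasi-likelihood F test and Benjamini-Hochberg adjustment over all genes, 36 members (94.7%) differed among the 4 groups, against 80.3% of genes tested. The exceptions were Arc (adjusted p = 0.0792) and Dusp8 (adjusted p = 0.192). The median ratio of the highest to the lowest group mean was 2.42 for members, against 1.77 for all genes. The summed markers of other cell types differed along the same line, though single genes carried much of these sums. The libraries without doxycycline summed to 18.3 to 26.9 CPM of endothelial markers, against 3.28 to 5.59 CPM in the transfection controls, and to 10.3 to 17.5 CPM of skeletal muscle markers, against 3.16 to 4.7 CPM. They were lower in blood and macrophage markers, with 7.93 to 15.1 CPM against 20.1 to 35.3 CPM, and in neural markers, with 5.57 to 7.86 CPM against 12.2 to 108 CPM. Pecam1, at 15.5 to 22.8 CPM without doxycycline, made up most of the endothelial sum, while Cdh5 had 0 to 0.764 CPM against 0.743 to 3.21 CPM. Des, at 10.3 to 16.5 CPM, made up nearly all of the muscle sum. Cd14 had 3.91 to 5.4 CPM against 12.9 to 24.4 CPM, while Ptprc of the same list had 0.474 to 2.26 CPM against 0.052 to 0.477 CPM. The collagen-binding fibroblast markers Dcn, with 3.41 to 4.62 CPM against 99.5 to 249 CPM, and Lum, with 0.091 to 1.3 CPM against 12 to 61.2 CPM, were far lower without doxycycline. Of the same list, Pdgfrb, S100a4 and Fn1 were lower without overlap as well. Pdgfra was higher without overlap, with 504 to 550 CPM against 282 to 420 CPM. Col1a1, Col1a2, Col3a1, Thy1, Vim and Fap overlapped with the transfection controls. The part of all these markers in the members' levels was not tested. Construct delivery, depth and experiment differ together between these groups and cannot be told apart. In bulk libraries fewer cells that express a gene and less RNA per cell cannot be told apart either.

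**Figure D1:**
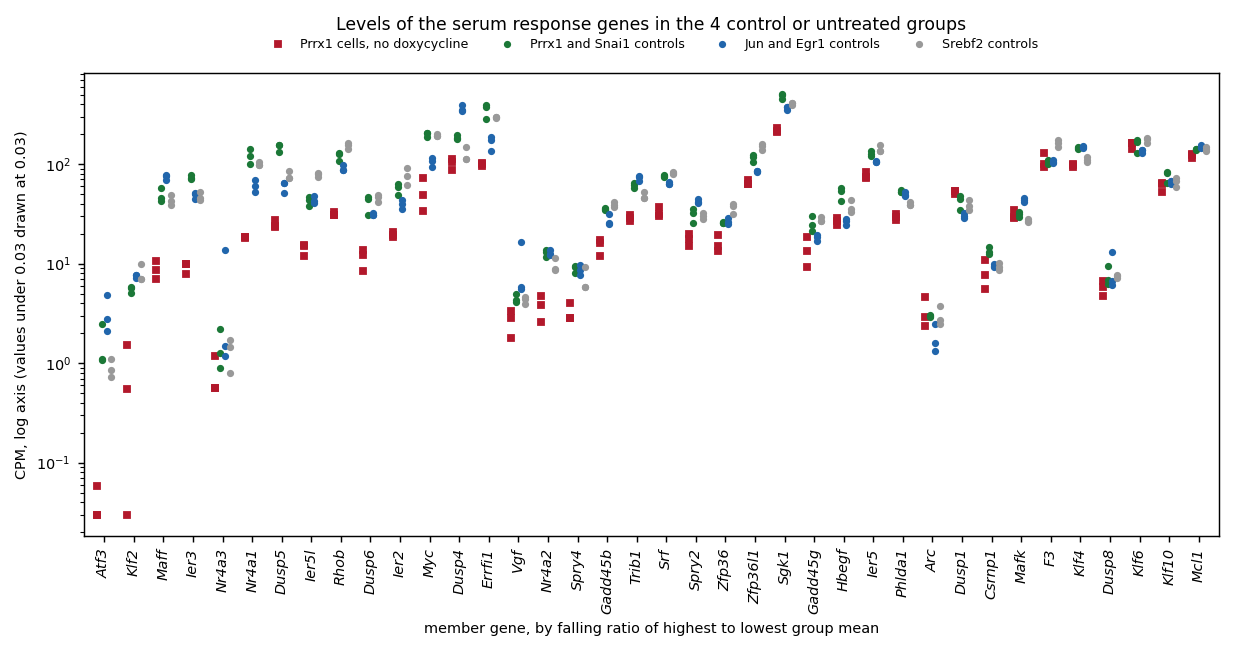
Levels of the 38 members in CPM (log axis) in the 12 control or untreated libraries, 1 point a library, with the no-doxycycline Prrx1 cells as squares and the 3 plasmid control groups as circles, genes ordered by the ratio of the highest to the lowest group mean. For 26 members all squares lie below all circles, and Dusp1 is the member with all squares above.

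Among members with a group mean of at least 1 CPM in every group, Maff, a small partner of bZIP factors, differed most between groups, by 8.5-fold. It averaged 8.72 CPM without doxycycline, and 48.8 CPM in the Prrx1 and Snai1 controls, 74.1 CPM in the Jun and Egr1 controls and 43.4 CPM in the Srebf2 controls, where the Srebf2 and the Prrx1 and Snai1 controls overlapped. The survival gene Ier3 followed with a ratio of 7.94, from a mean of 9.27 CPM without doxycycline and 73.6, 48.3 and 47.2 CPM in those 3 control groups. The nuclear receptor Nr4a1 had a ratio of 6.55 (18.4 CPM without doxycycline and 120, 60.6 and 100 CPM in the control groups). Dusp5, a nuclear ERK phosphatase of which 78.8% of the 31-base words are found in no other gene, had a ratio of 5.96 (24.8 CPM, and 148, 60.3 and 76.5 CPM), with no overlap between any neighbouring groups. Ier5l, a relative of the early gene Ier5, had a ratio of 5.48 (14.2 CPM, and 42.4, 43.8 and 77.7 CPM).

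The steadiest members were the survival gene Mcl1 (ratio 1.23, with means between 121 and 149 CPM), the Kruppel-like factors Klf10 (1.26, 60.4 to 76.3 CPM) and Klf6 (1.28, 136 to 175 CPM), Dusp8 (1.5) and Klf4 (1.53, 97.2 to 148 CPM). Atf3, Klf2 and Nr4a3 averaged below 1 CPM without doxycycline. Atf3 had 0.0587, 0 and 0 CPM there, where a count of 0 allows up to 0.355 and 0.273 CPM, against 0.728 to 4.81 CPM in the transfection controls. Klf2 had 1.53, 0 and 0.546 CPM there, against 5.06 to 9.91 CPM, and Nr4a3 had 0.559 to 1.18 CPM, against 0.797 to 13.8 CPM. The Klf2 and Atf3 libraries stood wholly apart and those of Nr4a3 overlapped; the limits cover counting error only. The top Nr4a3 value is that of replicate 2 of the Jun and Egr1 controls, whose group mates had 1.49 and 1.18 CPM, and in the same library Vgf had 16.4 CPM and Dusp8 had 13.2 CPM. The neural markers of that control group summed to 12.2 CPM in its lowest library and 108 CPM in its highest, and their part in these values was not tested.

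**Figure D2:**
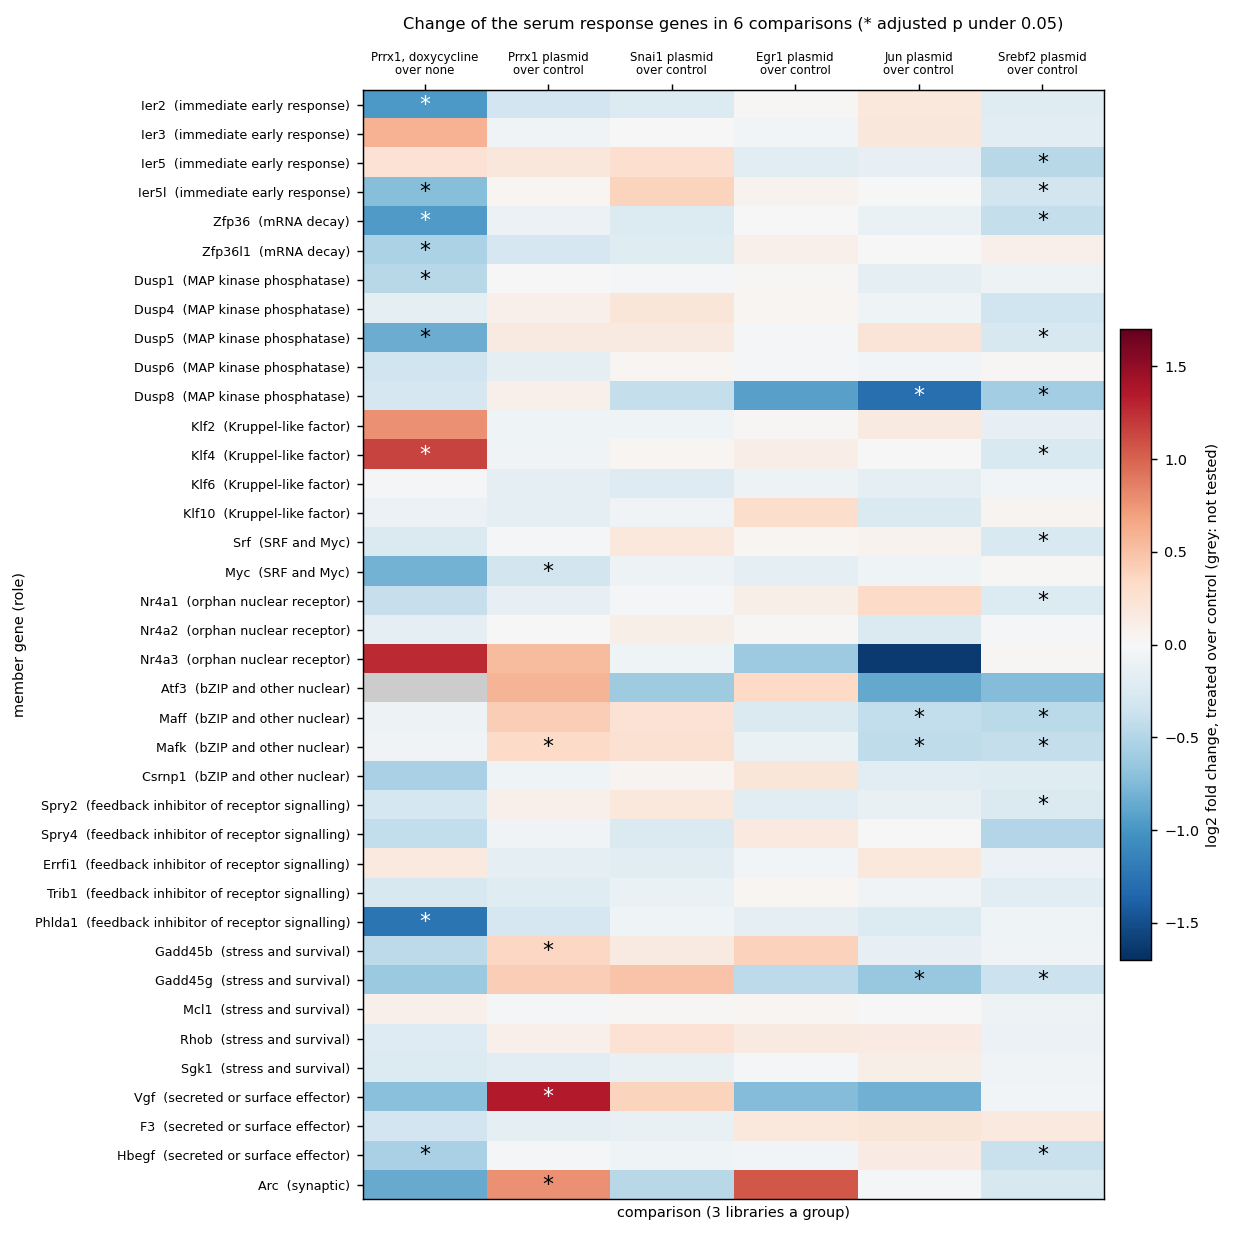
Log2 fold change of each member (rows, with its role) in the 6 comparisons (columns), treated over control, red for higher and blue for lower, from 3 libraries a group; asterisks mark an adjusted p under 0.05, and grey marks Atf3, which was not tested with doxycycline. The doxycycline column holds 1 higher and 8 lower calls and the Srebf2 column 13 lower calls, while the Snai1 and Egr1 columns hold none.

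Doxycycline induction of Prrx1, a homeobox factor of limb and head mesenchyme, was followed by lower levels of several early genes and by a higher level of Klf4. No group had doxycycline without the Prrx1 construct, so changes made by the drug itself and by Prrx1 cannot be told apart. Of 37 members tested, 1 rose and 8 fell, against 6.19% of all genes tested called, 3.46% higher and 2.74% lower. The median log2 fold change of the members was −0.30, against −0.01 over all genes tested, and 30 of 37 were negative. The groups did not overlap for 23 members (62.2%), 6 with all doxycycline libraries above and 17 below, against 25.1% of genes tested, 14.4% above and 10.7% below. Atf3 had too few counts to be tested.

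The Kruppel-like factor gene Klf4 (chr4:55527143-55532466), a zinc finger regulator of cell cycle exit and of pluripotency, had 222, 225 and 212 CPM with doxycycline, against 98.6, 99.8 and 93.3 CPM without. The groups were far apart, and Klf4 rose 2.23-fold (log2 fold change 1.16 ± 0.0769 SE, adjusted p = 7.22e-06). The other Kruppel-like factors Klf2 (0.78, or 0.29 without replicate 2 of the no-doxycycline group), Klf6 (−0.04) and Klf10 (−0.09) did not pass.

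Phlda1 (chr10:111506286-111508645), a pleckstrin homology gene that restrains receptor signalling, had the deepest fall. It had 12.3, 12.2 and 13.2 CPM with doxycycline, against 31.4, 27.3 and 29.3 CPM without. All doxycycline libraries were under all others, a fall to 0.422-fold (log2 fold change −1.25 ± 0.138, adjusted p = 0.000251). Only 69.2% of its 31-base words are found in no other gene, so its level is uncertain.

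Of the immediate early response genes proper, Ier2, a nuclear early protein, had 10.7, 11.1 and 8.31 CPM with doxycycline, against 20.6, 19.2 and 18.3 CPM without. The groups did not overlap, and Ier2 fell to 0.507-fold (−0.98 ± 0.169, adjusted p = 0.00514). Ier5l had 8.31, 8.92 and 9.03 CPM, against 15.2, 12 and 15.4 CPM (−0.72 ± 0.184, adjusted p = 0.0417). Ier3 (0.59, adjusted p = 0.0962) and Ier5 (0.24) did not pass.

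Both mRNA decay genes fell. Zfp36 (chr7:28376784-28380253), which encodes tristetraprolin, had 10.5, 8.84 and 6.0 CPM with doxycycline, against 19.2, 15.1 and 13.4 CPM without (−0.96 ± 0.234, adjusted p = 0.0334). Zfp36l1 had 46.1, 41.9 and 48.2 CPM, against 63.8, 62.9 and 68.7 CPM (−0.54 ± 0.101, adjusted p = 0.00872). Neither pair of groups overlapped, and 40% of the 31-base words of Zfp36l1 are its own, which makes its value uncertain.

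Among the MAP kinase phosphatases, Dusp5 had 12.3, 13.2 and 16.4 CPM with doxycycline, against 24, 27.3 and 23.2 CPM without (−0.84 ± 0.156, adjusted p = 0.00861). Dusp1 had 36.7, 36.4 and 42.3 CPM, against 54.0, 50.2 and 53.6 CPM (−0.47 ± 0.112, adjusted p = 0.0305). The doxycycline libraries were lower without overlap in both. Dusp4, Dusp6 and Dusp8 did not pass, and all 5 phosphatases had negative values, between −0.84 and −0.17. Annotated genes on the other strand overlap Dusp1, Dusp5, Zfp36, Zfp36l1 and Phlda1, and the strand of the libraries is not given in the sources used here. Counted on either strand, 100% of the 31-base words of Dusp1 and 93.4% of those of Zfp36 are found in no other gene. The shares are 78.8% for Dusp5, 69.2% for Phlda1 and 40% for Zfp36l1. Reads made only of shared words cannot be told apart.

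Hbegf, a membrane-bound growth factor that activates the EGF receptor, had 19.8, 17.8 and 17.6 CPM with doxycycline, against 26.6, 24.4 and 28.7 CPM without. The groups did not overlap (−0.56 ± 0.13, adjusted p = 0.0277). Myc had 31, 31.3 and 28.9 CPM, against 72.0, 34.1 and 48.4 CPM, and did not pass (−0.80 ± 0.273, adjusted p = 0.169). Its no-doxycycline libraries were widely spread. Without replicate 2 of them Myc passed (−1.03, adjusted p = 0.0046), as did Gadd45g and F3, which gave 12 called members of which 11 were lower. Over all genes the number called rose in that run as well, from 844 to 1250.

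**Figure D3:**
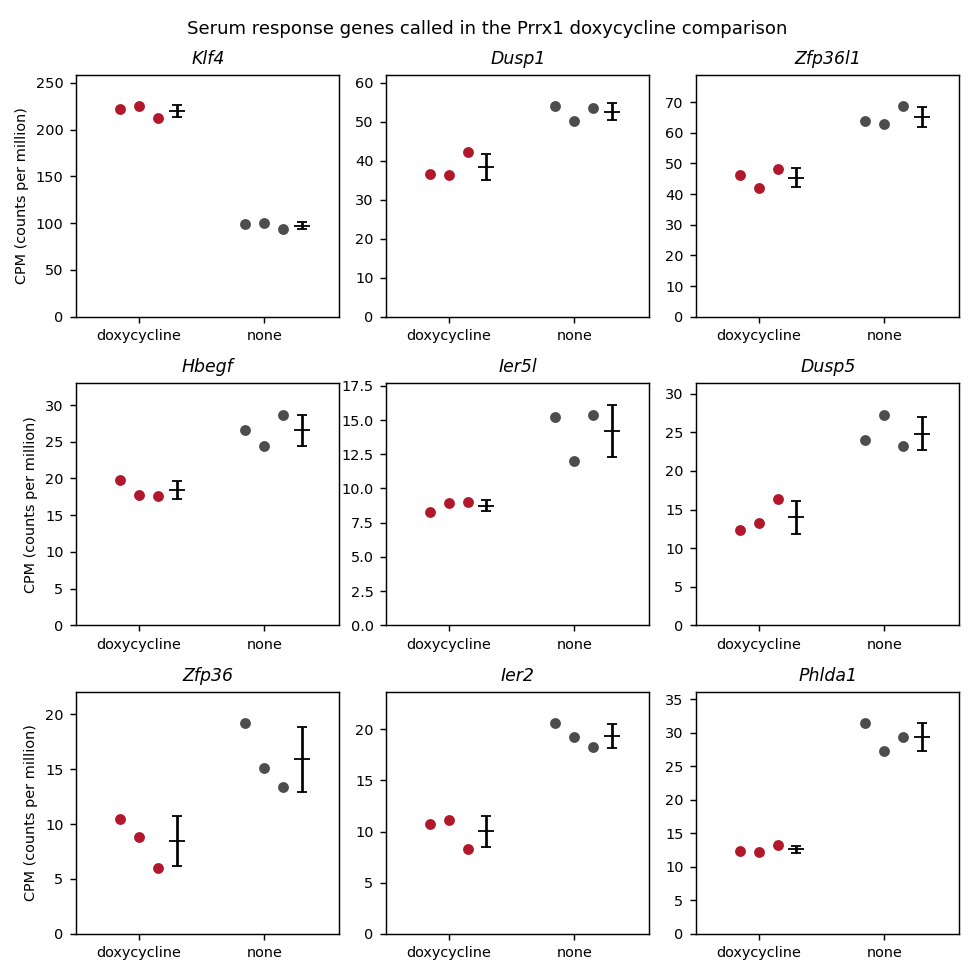
CPM of the 9 members called with doxycycline, 1 point a library, with doxycycline-treated Prrx1 cells on the left and untreated cells on the right of each panel; bars give the mean and SD of 3 libraries. Klf4 is higher in all 3 doxycycline libraries and the other 8 genes are lower in all 3.

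The AP-1 and Egr genes, which were not members, moved in the same comparison: 6 of 9 tested fell and 0 rose. Of these Fosb (−1.6), Jund (−0.80, with 49.9% own 31-base words), Egr1 (−0.71) and Junb (−0.68) are subunits or early factors with the largest changes. Of 22 other early genes, 4 fell and 1 rose, namely the prostaglandin synthase Ptgs2 (−1.43), the polo kinases Plk2 (−0.89) and Plk3 (−0.84) and the clock-linked repressor Bhlhe40 (−0.45), and the chemokine Ccl2 (0.69). Upstream, 1 of 20 tested genes of the ERK pathway and the SRF cofactors rose, the ternary complex factor Elk3 (0.31), and 0 fell. These lists, like the members, were drawn up with earlier results known. The fibroblast markers summed to 18192 to 18421 CPM with doxycycline and 15922 to 18557 CPM without, with Pdgfrb (0.79) among the risen genes and Col3a1 (−0.95) among the fallen, and the neural markers to 7.05 to 7.37 CPM with and 5.57 to 7.86 CPM without. Their part in the members' changes was not tested. The calls of Zfp36, Ier5l and Hbegf each ended in 5 of 6 runs without 1 library and that of Dusp1 in 4. Leaving out doxycycline replicate 2 gave 3 called members, Klf4, Phlda1 and Ier2, and limma on log2(TPM + 1) gave 2, Klf4 and Phlda1.

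Transfection of Prrx1 gave a different set. Of 38 members, 4 rose and 1 fell, against 2.98% of all genes tested called, 1.93% higher and 1.05% lower. The median of the members was −0.03, against 0.00 over all genes, and the groups did not overlap for 12 members (31.6%), against 19.7% of genes tested. Of these 12, the Prrx1 libraries were above for 6, against 10.4%, and below for 6, against 9.34%.

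Vgf (chr5:137026392-137033351), which encodes the precursor of secreted neuropeptides and is induced by growth factors in neuronal cells, had 10.9, 9.58 and 13.8 CPM with the Prrx1 plasmid, against 5.0, 4.12 and 4.33 CPM in the controls. It rose 2.54-fold without overlap (log2 fold change 1.35 ± 0.168, adjusted p = 0.00116). Arc (chr15:74669083-74672570), whose protein works at synapses, had 4.58, 4.99 and 5.67 CPM, against 3.02, 2.96 and 2.92 CPM (0.78 ± 0.166, adjusted p = 0.0259). Both genes are low in these cells, and both were higher in each Prrx1 library than in any control. The 5 neural markers summed to 16.8 to 20.7 CPM with the plasmid and 15.4 to 17.9 CPM in the controls. Of them Rbfox3 had 0.622, 0.79 and 0.825 CPM with the plasmid, against 0 CPM in each control, and was called higher (adjusted p = 0.00896); its part in these changes was not tested.

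The stress gene Gadd45b had 43.0, 49.5 and 42.1 CPM with the Prrx1 plasmid, against 35.9, 34.6 and 35.0 CPM in the controls (0.35 ± 0.0787, adjusted p = 0.0309). Mafk, a small Maf protein, had 40.2, 39.4 and 38.6 CPM, against 32.7, 31.8 and 29.6 CPM (0.33 ± 0.0714, adjusted p = 0.0287). Myc had 163, 170 and 146 CPM, against 188, 203 and 203 CPM, and fell (−0.31 ± 0.0643, adjusted p = 0.0206). The steps for these 3 were small, though no library of one group reached into the other. A gene on the other strand overlaps Mafk.

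Replicate 1 of the shared controls decided how many members were called. Without it the count was 14, 8 higher and 6 lower, or 36.8% against 19.7% of all genes then tested, and it took in Maff (0.56) and Gadd45g (0.58) on the higher side and Klf10 (−0.25) and Sgk1 (−0.23) on the lower. Without replicate 1 of the Prrx1 group the count was 1, Vgf. Vgf held its call without each library in turn. Those of Gadd45b and Mafk each held in 1 of 9 such runs, that of Arc in 4 and that of Myc in 5. The calls of Gadd45b, Mafk and Myc ended under limma on log2(TPM + 1), and those of Arc, Gadd45b, Mafk and Myc in 1 fit of all 30 libraries. Of the AP-1 and Egr genes 1 of 10 tested rose, Jund (0.32), of the other early genes 1 of 22, the GTPase gene Gem (0.64), and of the ERK pathway and SRF cofactors 1 of 20 fell, the kinase Mapk3 (−0.28).

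The 2 Prrx1 experiments differ in delivery, in the reached level of Prrx1 and in their controls, which they do not share. They also differ in doxycycline, which the labels name for the transduced cells only, and its part was not tested. The difference of the 2 changes (induction minus transfection) was called for 7 of 38 members, 1 higher and 6 lower, against 4.0% of 15216 genes, 1.98% higher and 2.01% lower. For Klf4 the change was 1.16 with doxycycline and −0.05 with the plasmid, a difference of 1.20 ± 0.108 (adjusted p = 5.51e-06). For Vgf the changes were −0.72 and 1.35, with a difference of −2.06 ± 0.386 (adjusted p = 0.00564), and for Arc −0.86 and 0.78, with a difference of −1.63 ± 0.403 (adjusted p = 0.0306). In these neuronal activity genes the doxycycline change itself did not pass.

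Gadd45b had changes of −0.45 with doxycycline and 0.35 with the plasmid (difference −0.81 ± 0.185, adjusted p = 0.0195), again with no call for the first. Dusp5 differed by −0.99 ± 0.158 (adjusted p = 0.00144), Phlda1 by −0.97 ± 0.167 (adjusted p = 0.00295) and Ier5l by −0.76 ± 0.196 (adjusted p = 0.0365). These 3 fell with doxycycline and had plasmid changes of 0.15, −0.28 and 0.03 that did not pass. For Ier2, Zfp36, Zfp36l1, Dusp1 and Hbegf, which also fell with doxycycline, the difference did not pass, that of Zfp36 lying at the threshold (−0.89, adjusted p = 0.05), so that these falls are not shown to differ between the experiments. The differences of Klf4, Vgf, Dusp5 and Phlda1 held their call without each of the 12 libraries in turn. Those of Arc, Gadd45b and Ier5l held in 5, 4 and 3 of 12 such runs.

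**Figure D4:**
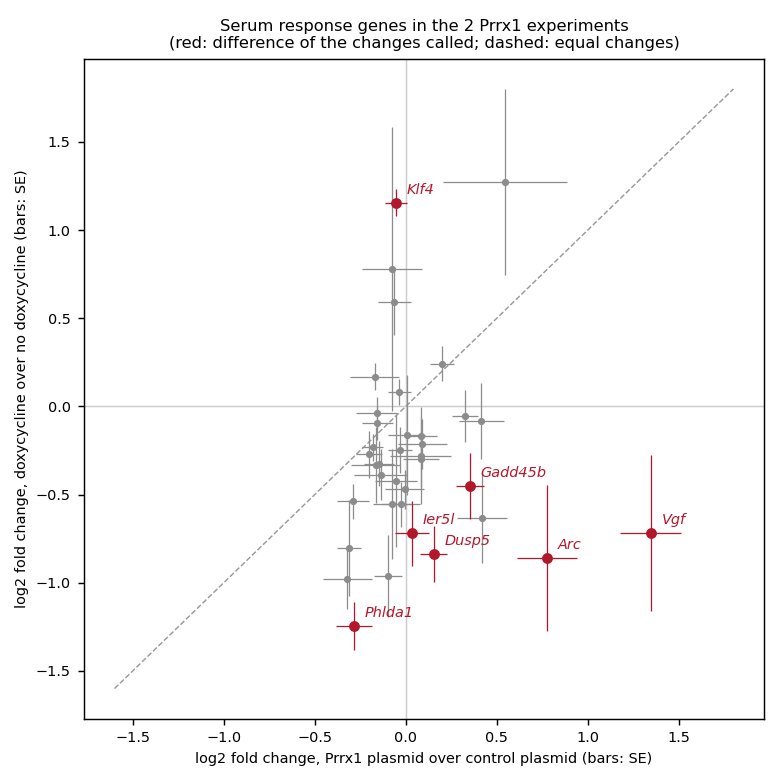
Log2 fold change with doxycycline (vertical axis) against that with the Prrx1 plasmid (horizontal axis) for the 37 members tested in both, with bars of 1 SE; red points are the 7 members whose difference was called. Klf4 lies above the line of equal changes, and Vgf, Arc, Gadd45b, Dusp5, Phlda1 and Ier5l lie below it.

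With Snai1, a zinc finger repressor of epithelial genes, edgeR called 0 of 38 members, against 1.62% of all genes tested, 1.13% higher and 0.488% lower. No overlap between groups was found for 13 members (34.2%), 7 above and 6 below, against 21.0% of genes, 10.3% above and 10.7% below. At an unadjusted p under 0.05 there were 10, 6 higher and 4 lower, and DESeq2 called 4, all higher: Ier5 (0.28), Ier5l (0.37), Gadd45g (0.48) and Mafk (0.26). The share of all genes at that unadjusted p was not counted, so the 10 have no background. DESeq2 called more of all genes than edgeR too, with the count given in the section on processing. Ier5 had 154, 147 and 160 CPM with Snai1, against 135, 121 and 125 CPM in the controls, with no overlap, and was closest to the threshold (adjusted p = 0.053). Member changes ranged from −0.60 for Atf3 (−0.10 without control replicate 1) to 0.49 for Gadd45g, around a median of −0.03, against 0.00 over all genes. Without replicate 1 of the controls, the same library that moved the Prrx1 count, 8 members were called, or 21.1% against 22.8% of genes, which is a share near the background. The AP-1 and Egr genes, the other early genes and the ERK pathway list had 0 of 10, 0 of 22 and 0 of 20 called by edgeR, with 2, 1 and 3 at an unadjusted p under 0.05.

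Egr1, itself an early zinc finger factor, was delivered without a called change in any member: edgeR called 0 of 38, against 0.325% of all genes tested, 0.2% higher and 0.124% lower. Libraries stood apart by group for 9 members (23.7%), 3 above and 6 below, against 16.3% of genes, 7.26% above and 9.0% below. Unadjusted p-values under 0.05 were found for 11, 5 higher and 6 lower, and DESeq2 called 6, with Gadd45b (0.40), Arc (1.06) and Klf10 (0.30) higher and Gadd45g (−0.45), Dusp8 (−0.92) and Maff (−0.24) lower. Again the share of all genes at that unadjusted p was not counted, and DESeq2 called more of all genes than edgeR did. Without control replicate 2, the library high in Dusp8, Vgf and Nr4a3, edgeR's value was −0.51 for Dusp8 (adjusted p = 0.292), and that of Nr4a3 was 1.38 (adjusted p = 0.0618), against −0.62 with all libraries. Gadd45b had 37.0, 38.1 and 32.5 CPM with Egr1, against 25.6, 25.1 and 31.4 CPM in the controls, and Arc had 3.19, 3.84 and 4.08 CPM, against 1.6, 2.5 and 1.31 CPM. The Egr1 libraries were above the controls in both genes without a call by edgeR. Without replicate 3 of the Egr1 group, the library with the high epithelial sum, 4 members were called, or 10.5% against 0.708% of genes: Klf10 (0.38), Gadd45b (0.47) and F3 (0.25) higher and Gadd45g (−0.52) lower. The 9 members with an Egr motif in a promoter window had changes between −0.25 for Maff and 0.40 for Gadd45b, none of them called by edgeR. Of the lists outside the members, Fosl1 (−0.41, with 45.5% own 31-base words) and Plk2 (−0.27) fell.

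Delivery of Jun, a subunit of AP-1, was followed by lower levels of 4 members and higher levels of none. They are 10.5% of the members, against 0.967% of all genes tested, 0.449% higher and 0.518% lower. The groups did not overlap for 14 members (36.8%), 4 with all Jun libraries above and 10 below, against 23.3% of genes tested, 7.98% above and 15.4% below. The 5 epithelial markers were lower as well. They summed to 2.49 to 6.5 CPM with Jun and 7.33 to 15.3 CPM in the controls, with a median log2 fold change of −1.37. The sums of the 5 neural markers overlapped, with 13.9 to 16.1 CPM with Jun and 12.2 to 108 CPM in the controls. Control replicate 2 was the highest control library in each of the 5, with 55.6 CPM of Map2 against 0.2 and 0.128 CPM in its group mates. The neural median of −1.89 was not calculated without that library. None of these 10 markers was called, and their part in the members' changes was not tested.

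Gadd45g, a stress gene of growth arrest, had 11.1, 11.3 and 11.8 CPM with Jun, against 16.8, 18.3 and 19.5 CPM in the controls (log2 fold change −0.65 ± 0.0927, adjusted p = 0.00652). The small Maf gene Maff (chr15:79346621-79359076) had 54.1, 54.0 and 55.1 CPM, against 77.1, 75.7 and 69.5 CPM (−0.42 ± 0.0574, adjusted p = 0.0045). Mafk had 28.2, 34.1 and 33.7 CPM, against 41.9, 44.0 and 45.3 CPM (−0.43 ± 0.0791, adjusted p = 0.0243). In all 3 genes the Jun libraries were lower without overlap. Gadd45g and Maff held their call without each library and under limma on log2(TPM + 1) but not in 1 fit of all 30 libraries, whereas that of Mafk ended in 7 of 9 runs without 1 library. On the log2(TPM + 1) scale, where the median of all genes moved by 0.15, limma also called F3, Ier3, Rhob and Sgk1 higher.

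Dusp8 (chr7:142079490-142095843), a phosphatase of the stress kinases JNK and p38, had 3.54, 3.49 and 3.43 CPM with Jun, against 6.72, 13.2 and 6.15 CPM in the controls. The groups did not overlap and the fall was the deepest of the 4 (−1.28 ± 0.246, adjusted p = 0.0356). The high value is that of control replicate 2, the library with the high neural sum; without it the change was −0.87 and kept its call (adjusted p = 0.0382), which ended without any 1 of the 3 Jun libraries. A gene on the other strand overlaps Dusp8. Nr4a3 had 1.83, 1.51 and 1.79 CPM, against 1.49, 13.8 and 1.18 CPM, where the fitted value of −1.63 did not pass (adjusted p = 0.458) and was 0.37 without that same library.

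Jun was set directly against Egr1 as well, where 2 members were lower with Jun, against 0.449% of all genes tested, 0.11% higher and 0.338% lower. Jun and Egr1 libraries did not overlap for 16 members (42.1%), 4 above and 12 below, against 17.4% of genes, 5.99% above and 11.5% below. Klf10, a TGF-beta-induced Kruppel-like factor, had 55.7, 53.4 and 56.1 CPM with Jun, against 85.3, 86.0 and 71.4 CPM with Egr1 (−0.54 ± 0.0656, adjusted p = 0.00213). Gadd45b had 24.4, 23.8 and 25.4 CPM, against 37.0, 38.1 and 32.5 CPM (−0.53 ± 0.0911, adjusted p = 0.0223). The call of Klf10 held without each library, while that of Gadd45b ended in 6 of 9 such runs (adjusted p up to 0.146), with the replicate number as a block and under limma on log2(TPM + 1), which also ended that of Klf10. Neither gene passed against the control plasmid for either factor. The control libraries of Klf10 lay between those of the factors, and those of Gadd45b overlapped with Jun and lay below Egr1. In the Jun comparison, the early genes outside the list gave 1 higher and 2 lower calls of 22, namely the Notch target Hes1 (0.65), Gem (−0.39) and Plk2 (−0.24), and the AP-1 gene Fosl1 fell (−0.36), with 45.5% own 31-base words.

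Srebf2, the main activator of sterol synthesis genes, was followed by lower levels of members of several roles. Of 38 members, 13 fell and 0 rose, which is 34.2%, against 17.2% of all genes tested called, 8.4% higher and 8.84% lower. The median of the members was −0.20, against 0.00 over all genes, and 32 of 38 were negative. All Srebf2 libraries were below all controls for 20 members (52.6%) and above for none, against 35.3% of genes not overlapping, 15.2% above and 20.1% below. The called changes were small, between −0.59 and −0.23, and the values of Atf3 (−0.73) and Spry4 (−0.50) did not pass.

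Of the early response genes, Ier5 (chr1:155096361-155099636), a nuclear protein induced by growth factors and heat, had 103, 99.1 and 97.7 CPM with Srebf2, against 154, 134 and 135 CPM in the controls. This was the fall with the smallest p (log2 fold change −0.48 ± 0.0576, adjusted p = 7.35e-05). Ier5l had 66.9, 63.6 and 54.7 CPM, against 73.6, 80.5 and 78.9 CPM (−0.31 ± 0.0694, adjusted p = 0.00583), and Zfp36 had 30.3, 24.6 and 26.4 CPM, against 31.4, 38.2 and 39.8 CPM (−0.41 ± 0.097, adjusted p = 0.00962). No group pair overlapped, though the highest Srebf2 library came close to the lowest control in Zfp36.

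Of the called genes the phosphatase Dusp8 fell most, with 5.04, 5.11 and 4.62 CPM, against 7.55, 7.7 and 7.22 CPM (−0.59 ± 0.137, adjusted p = 0.00749). Dusp5 had 62.2, 64.9 and 59.8 CPM, against 84.8, 72.8 and 71.7 CPM (−0.27 ± 0.0648, adjusted p = 0.00804). Both phosphatases were lower in every Srebf2 library, while Dusp1, Dusp4 and Dusp6 did not pass, the value of Dusp4 being called by DESeq2 (−0.34).

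The small Maf genes fell together: Maff had 28.9, 32.6 and 31.6 CPM, against 49.4, 42.5 and 38.5 CPM (−0.46 ± 0.084, adjusted p = 0.00169). Mafk had 19.8, 20.3 and 20.2 CPM, against 26.9, 26.3 and 28.1 CPM (−0.41 ± 0.0766, adjusted p = 0.00173). Srf (chr17:46548329-46556175) had 68.4, 68.0 and 66.6 CPM, against 81.1, 80.4 and 83.8 CPM (−0.25 ± 0.0534, adjusted p = 0.00399). The Srf libraries were tight in both groups, but on the log2(TPM + 1) scale its value was 0.02 (adjusted p = 0.939), so its direction depends on the unit. The cause was not tested, and a gene on the other strand overlaps Srf.

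Klf4 had 96.0, 91.8 and 85.9 CPM with Srebf2, against 106, 110 and 117 CPM in the controls (−0.27 ± 0.0583, adjusted p = 0.00535). Nr4a1 had 90.4, 86.8 and 76.0 CPM, against 97.3, 98.6 and 106 CPM (−0.23 ± 0.0641, adjusted p = 0.0188). Klf4 is thus lower here and higher with doxycycline, each against its own control.

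Gadd45g had 21.5, 18.8 and 23.2 CPM with Srebf2, against 26.8, 29.3 and 26.9 CPM (−0.37 ± 0.0877, adjusted p = 0.0085). Hbegf had 29.4, 27.8 and 27.4 CPM, against 43.5, 33.0 and 35.3 CPM (−0.38 ± 0.0879, adjusted p = 0.00698). The Sprouty gene Spry2, an inhibitor of receptor tyrosine kinase signalling, had 25.3, 26.0 and 23.6 CPM, against 32.0, 30.1 and 27.9 CPM (−0.25 ± 0.0787, adjusted p = 0.0388). All 3 were lower in every Srebf2 library, and Spry2 lost its call by DESeq2 and in 5 of 6 runs without 1 library. All 13 calls ended under limma on log2(TPM + 1), which called 33 genes in all, and 6 remained in 1 fit of all 30 libraries.

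**Figure D5:**
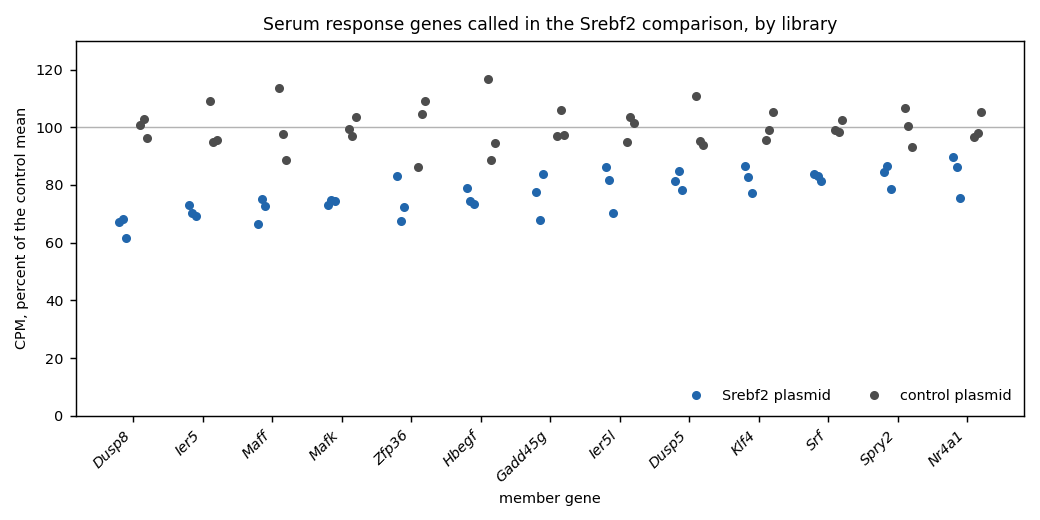
CPM of the 13 members called with Srebf2 as percent of the mean of the 3 controls, 1 point a library, Srebf2 libraries in blue to the left of the controls in grey for each gene. In each gene all 3 blue points lie below all 3 grey points.

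Among early genes outside the members, 2 of 10 AP-1 and Egr genes fell with Srebf2, Junb (−0.50) and Jun (−0.35), and 5 of 22 other early genes, among them the antiproliferative gene Btg2 (−0.51), the cytokine gene Lif (−0.45), the urokinase receptor gene Plaur (−0.29) and Ccl2 (−0.27). Of the ERK pathway and SRF cofactors, 5 of 20 rose and 1 fell. The risen genes include the exchange factor Sos1 (0.31) and the kinases Rps6ka3 (0.23) and Braf (0.21), and the fallen gene is Map2k2 (−0.23), and the whole list summed to 1943 to 2021 CPM with Srebf2 and 1916 to 1967 CPM in the controls. The AP-1 and Egr genes summed to 1071 to 1110 CPM with Srebf2 and 1234 to 1354 CPM in the controls.

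Several members were called in more than 1 experiment. Zfp36, Hbegf, Dusp5 and Ier5l fell with both doxycycline and Srebf2, and Maff, Mafk, Gadd45g and Dusp8 fell with both Jun and Srebf2, whose controls are separate. The share of all genes called in both comparisons was not counted, so these members have no background. The doxycycline calls of Zfp36, Hbegf and Ier5l each held in 1 of 6 runs without 1 library. The Jun calls of Mafk and Dusp8 held in 2 and 4 of 9 such runs. Mafk rose with the Prrx1 plasmid (0.33), against falls with Jun (−0.43) and Srebf2 (−0.41). Its Prrx1 call held in 1 of 9 runs without 1 library and its Srebf2 call in 6 of 6. Nr4a2, Nr4a3, Klf2, Klf6, Klf10, Atf3, Csrnp1, Spry4, Errfi1, Trib1, Mcl1, Rhob, Sgk1, F3, Ier3, Dusp4 and Dusp6 had no call by edgeR in any of the 6 comparisons of a factor with its control.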

How the data were processed

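RNA of NIH3T3-CG cells was sequenced as 30 bulk mRNA libraries in 10 groups of 3. The authors quantified reads with kallisto 0.43.0, and genome build mm10 is named, per the submitters' processing notes; the annotation, strand and read layout are not given in the sources used here. The deposited tables give estimated counts and TPM per transcript. Of 118491 targets, 116816 matched GENCODE M21. The rest, 0.614 to 4.61% of counts, was left out. This share was 3.78 to 4.61% in the Jun and Egr1 controls, 0.906 to 1.01% with Egr1 and 0.966 to 1.03% with Jun. It was 1.5 to 1.64% in the Srebf2 controls and 0.68 to 0.688% with Srebf2, while treated and control libraries overlapped in the other experiments. The authors' TPM still counts these targets in its total, and their part in differences between CPM and TPM was not tested. Estimated counts were summed per gene and rounded. CPM divides by the summed gene counts.

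Genes were tested in R 4.3.3 with edgeR 4.0.16 (quasi-likelihood F test, robust, TMM, filterByExpr with a minimum count of 10 and total of 15, prior count 0.125), two-sided, with Benjamini-Hochberg adjustment over all genes and a threshold of 0.05; SE is derived from F. Groups sharing controls were fitted together. Every called member is named, with values per library for at least the 12 largest changes of a comparison, and up to 4 called genes of each list of other early or ERK pathway genes. A result for 1 gene of those lists is not reported here. The members and lists were chosen with earlier results of these data known. Alternatives were DESeq2 1.42.0, median-ratio size factors, no filter or 5 CPM in 3 libraries, limma 3.58.1 on log2(TPM + 1) at a mean TPM of at least 1, a replicate block, 1 fit of all libraries and leaving out each library. The pipeline was tested on simulated data. Genes with under 90% of their 31-base words unique are marked as uncertain. Replicates differed beyond sampling noise in all groups, so none is a repeat deposit.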

Additional observations from a re-analysis of the deposited data

Results flagged for a closer look

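The change with doxycycline and the change with the Prrx1 plasmid differed for 7 members by the test of the difference itself (edgeR, induction minus transfection, 12 libraries, log2 scale). The difference was 1.2 for Klf4, −2.06 for Vgf, −1.63 for Arc, −0.99 for Dusp5, −0.97 for Phlda1, −0.81 for Gadd45b and −0.76 for Ier5l. The calls of Arc, Gadd45b and Ier5l held in 5, 4 and 3 of 12 runs without 1 library. Limma on log2(TPM + 1) kept that of Klf4 only. Every doxycycline library was on 1 side of every library without it for Klf4, Arc, Dusp5, Phlda1, Gadd45b and Ier5l, while those of Vgf overlapped. Over all genes tested with doxycycline, the groups did not overlap for 25.1%. Groups of 3 libraries were screened for single outlying values only by the 2-fold comparison of each library with its group mates.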

How the results depend on the processing

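Of 40 called member values, median-ratio size factors and no filter kept 40, DESeq2 39, the replicate block 37, 1 fit of all 30 libraries 27 and limma on log2(TPM + 1) 7; 20 kept their call without each library. Limma on TPM turned 1 direction, Srf with Srebf2 (0.021, adjusted p = 0.939), and moved the median of all genes by 0.15 for Egr1 and for Jun; the cause was not tested.

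Counts of called members, without each library in turn, ran from 3 to 12 for doxycycline, 1 to 14 for the Prrx1 plasmid, 0 to 8 for Snai1, 0 to 4 for Egr1, 2 to 6 for Jun, 10 to 14 for Srebf2, 1 to 3 for Jun against Egr1 and 4 to 11 for the difference of the Prrx1 changes. Counts of all genes ran from 334 to 1250, 103 to 2641, 46 to 3058, 9 to 106, 27 to 327, 968 to 2317, 17 to 141 and 301 to 1116 in the same order.

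Member counts that moved by over 1.5 times were these. DESeq2 called 4 for Snai1, 6 for Egr1 and 5 for Jun against Egr1. The 5 CPM filter called 1 for Snai1 and 1 for Egr1, no filter 3 and 1, and median-ratio factors 1 for Snai1. Limma on TPM called 2 for doxycycline, 2 for the Prrx1 plasmid, 0 for Srebf2, 0 for Jun against Egr1 and 1 for the difference. The fit of all libraries called 19 for doxycycline, 2 for the Prrx1 plasmid, 2 for Snai1, 2 for Egr1, 2 for Jun, 6 for Srebf2 and 12 for the difference. Counts of all genes moved under DESeq2 to 669 for the Prrx1 plasmid, 542 for Snai1, 208 for Egr1, 511 for Jun, 227 for Jun against Egr1 and 974 for the difference. Under limma on TPM they were 77 for doxycycline (77.9% higher, against 55.8%), 167 for Prrx1, 96 for Snai1, 1638 for Jun (97.4% higher), 33 for Srebf2, 13 for Jun against Egr1 and 188 for the difference. No filter gave 1326 for doxycycline, 615 for Prrx1 and 421 for Snai1, and the 5 CPM filter 244 for Jun. The fit of all libraries gave 2705 for doxycycline, 101 for Egr1, 58 for Jun, 569 for Srebf2, 100 for Jun against Egr1 and 1900 for the difference.

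Of 24 pairs of libraries with the same replicate number, 0 had a correlation of deviations over 0.1, a cut set by hand (−0.188 to 0.0969). Pairs with different numbers reached 0.168 in the Jun and Egr1 experiment. The replicate 2 pairs of the Prrx1 and Snai1 experiment had 0.0877, 0.0731 and 0.0845. Strong pairing by number was thus not seen, and weak pairing cannot be told from none. With the replicate block, member counts were 8 for doxycycline, 5 for the Prrx1 plasmid, 2 for Snai1, 0 for Egr1, 3 for Jun, 17 for Srebf2, 1 for Jun against Egr1 and 10 for the difference, and counts of all genes moved to 20 for Egr1, 73 for Jun and 34 for Jun against Egr1. The lower depth of the doxycycline experiment limits what can be seen for Atf3, Klf2 and Nr4a3.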
